A study of Rattus norvegicus with 8 samples.

Results

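Interleukin-2 and its receptor chains were followed in spinal cords from female Lewis rats with EAE (experimental autoimmune encephalomyelitis), in which T cells start inflammation of brain and spinal cord. Members were the probe sets whose only gene symbol in the array's annotation was Il2, Il2ra, Il2rg or Il21r, which gave 4 genes of 7830 and 32 probe sets of 80939. A probe set is a small group of probes that reads an exon or part of one. The 4 EAE rats, virgin and 16 weeks old, had been injected at the tail base with 50 µg of myelin basic protein (MBP) of guinea pig brain in incomplete Freund's adjuvant holding 4.0 mg/ml of M. butyricum (spelled M.Butiricium in the labels). They were taken at the peak of disease, 13 days after injection. The 4 controls were untreated virgin littermates of the same strain, sex and age, taken at the same time. The controls had no injection, so effects of MBP and of the adjuvant cannot be told apart. RNA came from the whole cord, 1 rat per array, and no litter or batch is given per rat.

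Interleukin-2 is a growth and survival factor made mainly by activated T cells. Its receptor joins the alpha chain Il2ra (CD25), which raises affinity, to a beta chain and to the common gamma chain Il2rg (CD132). The gamma chain is also part of the receptors for interleukins 4, 7, 9, 15 and 21, the last of which is bound by Il21r. The receptor signals through the kinases Jak1 and Jak3 to STAT transcription factors. EAE is started by T cells that recognise myelin, and CD25 marks activated and regulatory T cells.

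Values are log2 intensities, and a change is EAE minus control. A probe set was counted as measured where at least 4 of the 8 arrays reached the 25th percentile of all values (log2 3.98). A gene value is the mean over its measured probe sets. Genes of olfactory receptors, the odorant sensors of the nose, served as background. Their gene means were taken over all their probe sets, without the filter, and 95% lay under 4.70 in EAE and 4.77 in control rats. Of their single probe sets 95% lay under 5.13 in EAE and 5.21 in control rats. These 2 pairs of values are the background limits below. Gene values of the other genes leave out dim probe sets, so the limits for gene means are low for them. Genes were tested with limma over all 6961 genes with a measured probe set, and p-values were adjusted by Benjamini-Hochberg over all of them.

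Array means were nearly equal (5.768 to 5.770), and SDs ran from 2.11 to 2.26. Control rat 195 had the narrowest spread and the brightest olfactory receptor background (median 3.77, against 3.16 to 3.49 on the other arrays). Of 21 spinal cord tissue markers 14 were measured, and all but Isl1 were above background in both groups. Of these 14 genes 2 rose and 5 fell. They included the astrocyte genes Slc1a3 (change 1.15 ± 0.19, SE) and Gfap (0.69 ± 0.14) and the GABA-synthesising enzyme Gad1 (-0.76 ± 0.12). The motor neuron factor Isl1, named only because of these values, was at background in both groups.

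The stretches before each gene's start are shown because 3 of the members moved up and 1 down in the same cords. They are the bases from position -250 that lie outside the annotated gene, 5′ to 3′ on the gene's strand, from RefSeq (build GRCr8). All 4 genes matched by symbol: Il2 at chr2:121937673-121937922 (minus strand), Il2ra at chr17:71808476-71808725 (minus), Il2rg at chrX:70439053-70439250 (minus) and Il21r at chr1:189598503-189598681 (plus). Capitals mark matches, on either strand, to a cAMP response element (TGACGTCA) or to the short core GGAAA, which is shared by sites for NFAT and for ETS factors.
Il2: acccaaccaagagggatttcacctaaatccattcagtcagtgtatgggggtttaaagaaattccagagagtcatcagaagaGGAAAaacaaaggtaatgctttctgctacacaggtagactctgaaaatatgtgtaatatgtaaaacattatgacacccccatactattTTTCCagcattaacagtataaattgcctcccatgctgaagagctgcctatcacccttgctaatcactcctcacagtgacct
Il2ra: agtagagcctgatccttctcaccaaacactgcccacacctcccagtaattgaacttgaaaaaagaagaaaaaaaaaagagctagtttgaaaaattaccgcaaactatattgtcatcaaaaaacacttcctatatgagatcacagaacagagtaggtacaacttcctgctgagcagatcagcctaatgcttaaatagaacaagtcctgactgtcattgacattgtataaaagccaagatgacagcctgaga
Il2rg: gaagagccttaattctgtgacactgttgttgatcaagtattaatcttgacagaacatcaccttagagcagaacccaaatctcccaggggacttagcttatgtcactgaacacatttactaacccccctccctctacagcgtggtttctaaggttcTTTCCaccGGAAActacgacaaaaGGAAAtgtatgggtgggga
Il21r: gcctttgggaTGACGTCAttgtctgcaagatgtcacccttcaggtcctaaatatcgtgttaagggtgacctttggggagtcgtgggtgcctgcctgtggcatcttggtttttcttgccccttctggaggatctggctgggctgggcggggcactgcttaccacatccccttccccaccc
The cAMP response element was found in Il21r, at positions -240 to -233 from the RefSeq start, and in 1.59% of 33469 rat stretches of 250 bases. The core GGAAA occurred 2 times in Il2, 3 times in Il2rg and in 56.9% of all stretches. It was not matched in the 250 bases of Il2ra or Il21r. The STAT motif TTCNNNGAA (7.67% of stretches) and the AP-1 motif TGANTCA (6.34%) were matched in none of the 4. These are descriptions of letters, and binding was not measured.

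The comparison of EAE with control rats asked how the expression of each chain differed in the diseased cord. The receptor chains Il2rg, Il2ra and Il21r rose and the ligand Il2 fell, all 4 past an adjusted p of 0.05, where 31.1% of all genes passed, 13.7% with a rise and 17.4% with a fall. Over all genes the median change was -0.11. The groups did not overlap in any of the 4 genes, as in 33.2% of all genes. Every probe set of Il2rg and Il2ra rose, against 2 of the 8 measured ones of Il21r, and 1 of the 2 measured ones of Il2 fell. Each array's values were also raised to its own olfactory receptor limit for single probe sets where they lay under it. Only Il2rg and Il2ra still passed then among these 4 genes.

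Over all 4 genes 26 of the 32 probe sets were measured, 10 of them only through the EAE arrays, which had to differ. Of the 26, 18 rose and 1 fell, where 20.4% of all measured probe sets passed, 10.2% with a rise and 10.2% with a fall. Over all 32 EAE lay above control without overlap on 19 and below on 1, where 21.3% of all probe sets did not overlap.

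**Figure D1:**
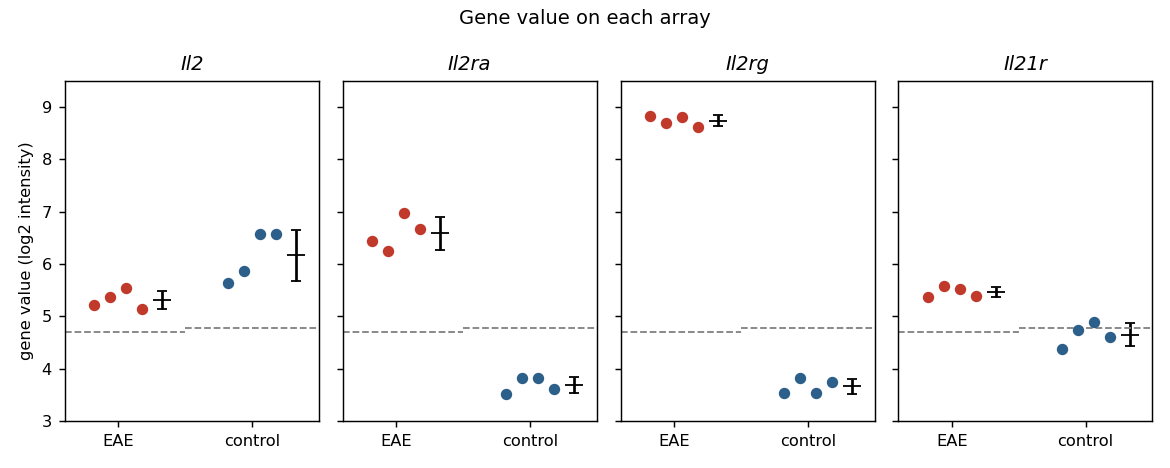
Gene value (log2 intensity, vertical axis) of the 4 members on each array, EAE left and control right in each panel. Points are rats, bars are the mean ± SD (n = 4), and dashed lines are the background limits of gene means (4.70 in EAE and 4.77 in control rats). The groups are separate in each panel, and the control means of Il2rg, Il2ra and Il21r are at background.

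Il2, the ligand, had gene values of 5.21, 5.36, 5.54 and 5.14 in EAE rats 217, 218, 219 and 241, against 5.64, 5.87, 6.57 and 6.58 in control rats 193, 194, 195 and 196. All 4 EAE rats lay below all 4 controls, by a small margin. The mean was 5.31 ± 0.18 in EAE and 6.17 ± 0.49 in control rats (SD, n = 4 each), a change of -0.85 ± 0.22 (SE, adjusted p = 0.0146 in limma). Only 2 of its 5 probe sets were measured, and the other 3 were at background in both groups.

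The 2 measured probe sets of Il2 differed in what they showed. Probe set 6259671 read 3.92, 3.11, 4.61 and 4.07 in EAE rats, against 5.22, 5.26, 4.82 and 6.08 in control rats. The groups did not overlap, and it fell by 1.42 ± 0.34 (adjusted p = 0.0153 in limma over all measured probe sets). Its mean in EAE was under the background limit, and its mean in controls (5.34) was just above it. Probe set 5905794, the one above background in both groups, read 6.50, 7.61, 6.48 and 6.21 in EAE rats, against 6.06, 6.47, 8.33 and 7.08 in control rats. These groups overlapped, with a change of -0.29 (95% interval -1.32 to 0.75, adjusted p = 0.712 in limma). Without control rat 195 its change was 0.16. The gene's fall did not pass with a filter at the 50th percentile, which leaves only that probe set (change -0.29, adjusted p = 0.664), or without variance moderation (adjusted p = 0.0566). The change of Il2 was -0.49 over all 5 probe sets, with no filter, and still passed (adjusted p = 0.0222).

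Il2rg, the common gamma chain, rose most among the members. Its gene values were 8.83, 8.69, 8.82 and 8.63 in EAE rats, against 3.54, 3.82, 3.54 and 3.75 in control rats. The EAE rats lay close together, and every control was under the background limit. The change was 5.08 ± 0.11 (33.9-fold, 95% interval 28.7 to 40.1, adjusted p = 1.17e-09 in limma). Because controls were at background, the fold depends on where background lies: with values raised to the olfactory receptor limit the change was 3.44 (10.8-fold, adjusted p = 2.58e-07).

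All 10 probe sets of Il2rg were measured, 5 of them only through the EAE arrays, so these 5 had to differ. All 10 rose (adjusted p under the threshold also with no filter, where 7.86% of all probe sets rose), and EAE lay above control without overlap on each, as in 9.37% of all probe sets. Changes ran from 3.99 ± 0.24 on probe set 6023774 to 6.10 ± 0.24 on probe set 6027484. The brightest in EAE, 5952409, read 10.40, 10.80, 10.63 and 10.33 in EAE rats, against 4.76, 5.11, 4.24 and 5.25 in control rats. The means of all 10 probe sets were at background in controls and above it in EAE.

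Il2ra, the alpha chain, had gene values of 6.45, 6.26, 6.98 and 6.66 in EAE rats, against 3.52, 3.82, 3.82 and 3.61 in control rats. EAE rat 219 was highest and rat 218 lowest, and the groups were far apart. The change was 2.90 ± 0.16 (7.44-fold, 95% interval 5.82 to 9.51, adjusted p = 5.29e-07 in limma). Controls were at background, and the change was 1.30 (2.46-fold, adjusted p = 0.00111) with values raised to the limit.

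All 6 probe sets of Il2ra were measured, 4 of them only through the EAE arrays, so these 4 had to differ. All 6 rose, with the filter (as did 10.2% of all measured probe sets) and without it (7.86% of all probe sets). The largest change, 4.46 ± 0.16, was on probe set 5832908, which read 7.15, 6.88, 7.07 and 7.03 in EAE rats, against 2.42, 2.58, 2.59 and 2.72 in control rats. The smallest, 1.62 ± 0.22, was on probe set 5826665, with 5.0007, 4.9996, 5.43 and 5.69 in EAE rats, against 3.97, 3.65, 3.29 and 3.73 in control rats. Il2ra probe set 5826665 changed by 0.14 and did not pass with values raised to the limit (adjusted p = 0.918). Probe set 6428891 was the only one whose control mean was not under the background limit, and that mean (5.213) lay almost on it (5.2105). It read 7.12, 6.76, 7.32 and 6.84 in EAE rats, against 4.76, 5.48, 5.89 and 4.72 in control rats, and it rose by 1.80 ± 0.28 (adjusted p = 0.0014). Rats with EAE differed most on probe set 5885052, with 5.92, 5.71, 7.69 and 6.74 in EAE rats, against 3.86, 3.62, 3.76 and 3.38 in control rats.

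**Figure D2:**
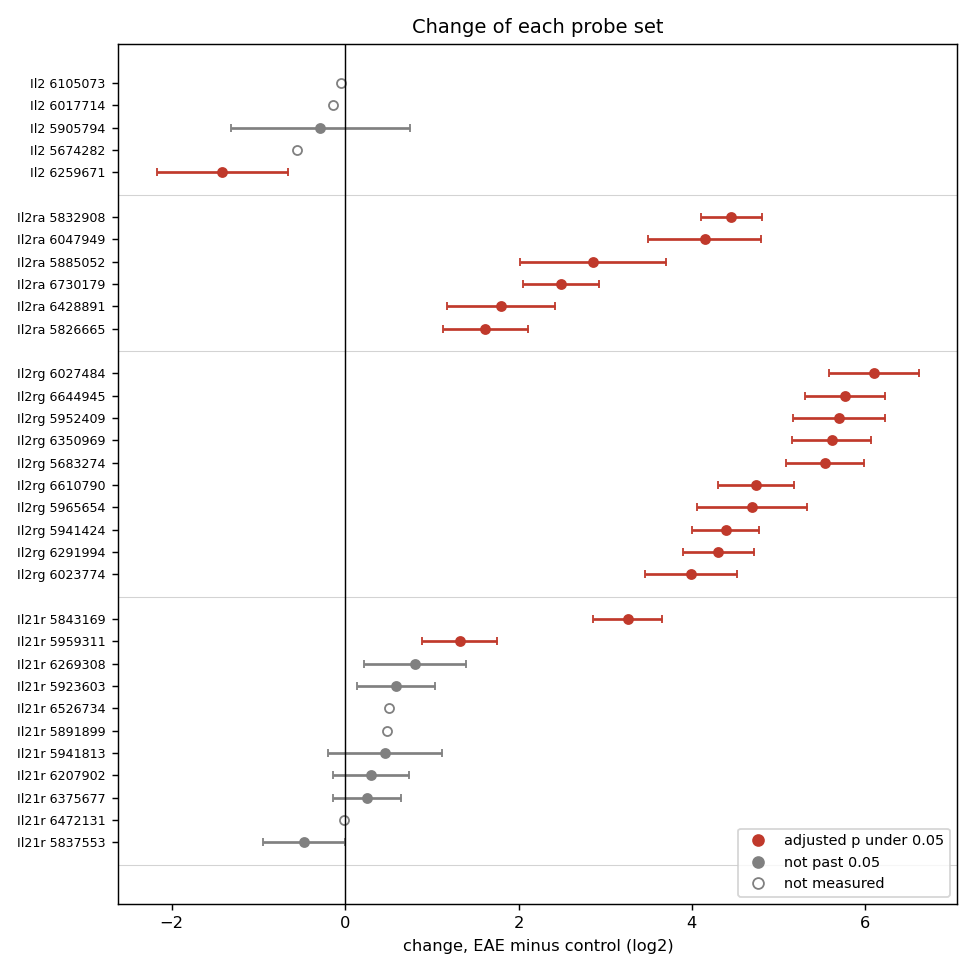
Change of each of the 32 member probe sets, EAE minus control (log2, horizontal axis), ordered by size within each gene. Filled points are measured probe sets with 95% intervals from limma, red where the adjusted p was under 0.05, and open points are probe sets that were not measured. All 16 probe sets of Il2rg and Il2ra rose, against 2 of 11 for Il21r, and 1 probe set of Il2 fell. Of all measured probe sets 10.2% rose and 10.2% fell.

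Il21r, the chain that binds interleukin-21, had gene values of 5.37, 5.57, 5.53 and 5.40 in EAE rats, against 4.38, 4.74, 4.89 and 4.60 in control rats. The EAE rats were higher without overlap, and the control mean was at background. The change was 0.81 ± 0.13 (1.76-fold, 95% interval 1.45 to 2.14, adjusted p = 0.000902 in limma). With values raised to the limit it was 0.33 and did not pass (adjusted p = 0.265). There 5 of its 8 measured probe sets lay at the limit on every array. That gene mean thus averages in probe sets with no value of their own, and does not speak for its brightest probe set. At the 50th percentile filter, which left only its 2 brightest probe sets, the change was 1.40.

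Probe sets of Il21r were uneven. Probe set 5843169 read 9.76, 10.18, 9.98 and 10.16 in EAE rats, against 6.51, 6.75, 6.98 and 6.79 in control rats. It was well above background in both groups and rose by 3.26 ± 0.18 (9.60-fold, adjusted p = 6.91e-07 in limma). Probe set 5837553, the only other one above background in both groups, read 5.39, 5.12, 5.59 and 5.03 in EAE rats, against 5.47, 5.49, 6.12 and 5.94 in control rats. Here the groups overlapped, and the change of -0.47 (95% interval -0.95 to 0.0040) did not pass (adjusted p = 0.151). Of these 2 probe sets above background, 1 rose and 1 did not pass. Whether probe set 5843169 reads only Il21r RNA was not tested.

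The other 9 probe sets of Il21r were at background in both groups. Of these, 6 were measured and 1 of the 6 rose: probe set 5959311, with 5.01, 4.99, 4.71 and 4.77 in EAE rats, against 3.17, 3.80, 3.78 and 3.44 in control rats (change 1.32 ± 0.19, adjusted p = 0.000951). Both group means of this probe set were under the limit, and it was measured only through the EAE arrays, so it had to differ. It also passed with no filter (adjusted p = 0.00104). The changes of the other 5 measured ones ran from 0.25 (probe set 6375677) to 0.81 (probe set 6269308), and none passed. In alternative limma runs probe set 5923603 passed with quantile normalization (adjusted p = 0.0450), with array weights (0.0400) and without control rat 195 (0.0295). Probe set 6269308 passed with quantile normalization (0.0490) and without control rat 194 (0.0144). The 3 that were not measured (5891899, 6472131 and 6526734) changed by 0.48, -0.02 and 0.51. Without probe set 5843169 the gene values were 4.75, 4.92, 4.89 and 4.72 in EAE rats, against 4.07, 4.45, 4.59 and 4.28 in control rats. That left a change of 0.47 ± 0.13 (adjusted p = 0.0198), which includes probe set 5959311. This alternative was chosen after seeing the data.

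**Figure D3:**
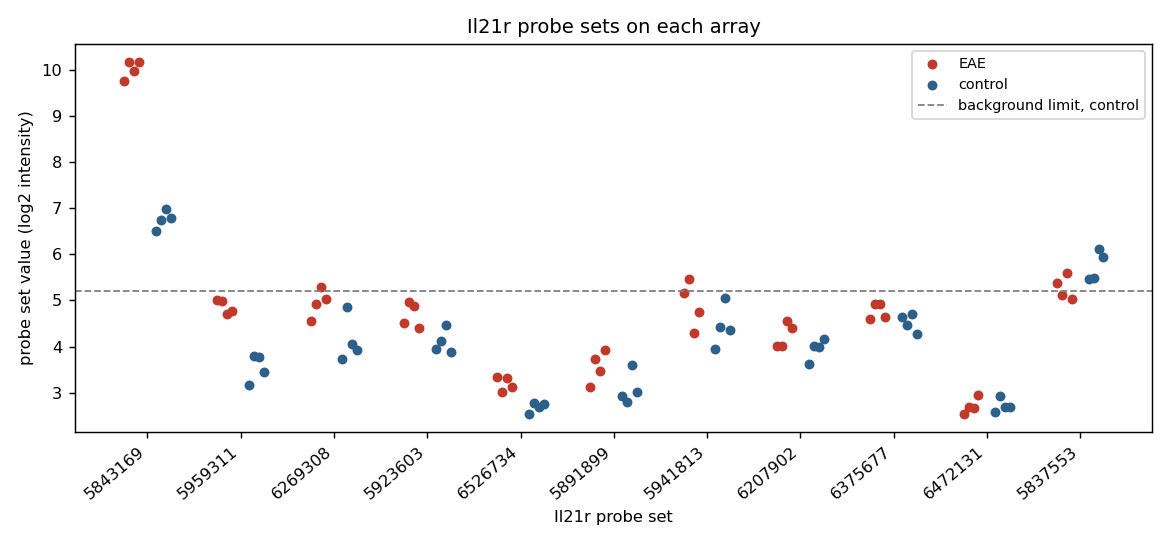
Value (log2 intensity, vertical axis) of the 11 Il21r probe sets on each array, EAE left and control right at each probe set, ordered by change. Points are rats, and the dashed line is the background limit of single probe sets in controls (5.21). Probe set 5843169 stands between 9.76 and 10.18 in EAE and between 6.51 and 6.98 in control rats, while most others lie under the line in both groups.

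Unevenness within a gene was tested with limma's diffSplice, which asks whether probe sets of one gene differ in their change. The study's design likewise asked for differences at the level of exons. Of 5563 genes with at least 3 measured probe sets 26.6% passed, so a pass alone does not set the members apart. Il21r (adjusted p = 2.60e-13), Il2rg (7.28e-09) and Il2ra (2.78e-08) all passed, and Il2 had too few measured probe sets. In Il21r probe set 5843169 rose by 2.80 more than the mean of the other 7 (adjusted p = 1.33e-13), and 5837553 moved by -1.47 relative to the others (1.55e-05). These were the only 2 of the 8 that passed as single probe sets, where 5.13% of all did. Il21r still passed without probe set 5843169 (adjusted p = 0.00175).

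In Il2ra and Il2rg every probe set rose and the sizes differed, although the rise of Il2ra probe set 5826665 did not pass with values raised to the limit. In Il2ra 2 probe sets rose more than the rest (5832908 by 1.87 and 6047949 by 1.503) and 2 rose less (5826665 by -1.53 and 6428891 by -1.32). In Il2rg 2 of 10 rose more and 3 rose less. Controls of 5 of 6 Il2ra and of all 10 Il2rg probe sets were at background. The part of this in the unevenness was not tested. No member had 3 probe sets above background in both groups, so the test could not be repeated on those alone. As a description, the gap between the largest change and the next was 1.94 in Il21r, against a median of 0.18 over the 5563 genes, and Il21r ranked 17th by this gap. The gap was 0.31 in Il2ra and 0.34 in Il2rg. The sources used here do not say which exon each probe set reads.

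Of 10 other ligands and receptors that share the gamma chain, 4 were measured: the interleukin-4 receptor alpha chain Il4ra (now Il4r), the receptor Il9r and the ligands Il7 and Il15. Il4ra rose by 0.63 ± 0.13 (mean 6.69 in EAE and 6.06 in control rats, adjusted p = 0.00403 in limma), and the change of Il4ra was 1.36 with the median over its probe sets in place of the mean. Il7 had a change of 0.12 ± 0.17 (adjusted p = 0.635), Il9r of -0.14 ± 0.16 (0.529) and Il15 of -0.16 ± 0.12 (0.360), and none of these 3 passed. The median change of the 4 was -0.01, against -0.11 over all genes. Il2rb, Il7r, Il9, Il15ra and Il21 were not analysed here. Il4 had no measured probe set.

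Of 15 measured genes of signalling below the receptor 8 rose and none fell, with a median change of 0.30. The largest rises were in Ptpn6, a phosphatase of blood cells that damps receptor signals (2.65 ± 0.11), the transcription factor Stat3 (1.42 ± 0.11) and the kinase Syk (1.34 ± 0.13). Controls of Syk were at background, and with values raised to the limit Syk changed by 0.43 and did not pass (adjusted p = 0.136). The parts next to the gamma chain, chosen for their role after their values were seen, rose less. Jak3, the kinase that binds the gamma chain, rose by 0.38 ± 0.12 (adjusted p = 0.0342), Jak1 by 0.30 ± 0.09 (0.0267) and Stat5b by 0.42 ± 0.11 (0.0156), and Stat5a did not pass (0.16 ± 0.11, adjusted p = 0.305). Jak3 and Stat5b lay close to background, and with values raised to the limit Jak3 changed by 0.09 and Stat5b by 0.13, without passing. Neither passed with no filter, and none of Jak1, Jak3 and Stat5b passed with the median per gene (adjusted p 0.152 to 0.213). Jak1 did not pass at the limit either, at the same change (adjusted p = 0.0628). The call of Jak3 was also lost without any one of EAE rats 217, 218, 219 or 241 or control rats 193 or 196 (adjusted p 0.0544 to 0.0899). That of Jak1 was lost without EAE rats 217, 218 or 241 or control rat 194 (0.0661 to 0.0771), and that of Stat5b without EAE rat 217 (0.0552). The feedback inhibitors Socs1, Socs2 and Socs3, which STAT factors can induce, had changes of -0.21, -0.07 and -0.24, none of which passed. These genes were also chosen for their role with their values known. Socs1 and Socs3 had 1 measured probe set each and were at background in both groups.

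Of 11 measured genes known to respond to interleukin-2 in T cells 5 rose and 1 fell, with a median change of 0.30. Interferon gamma (Ifng) rose by 1.37 ± 0.19, the granzyme Gzmb by 1.08 ± 0.23 and the kinase Pim1 by 0.86 ± 0.12. With values raised to the limit none of the 11 passed, and Ifng changed by 0.39, Gzmb by 0.29 and Pim1 by 0.12. The change of Ifng was 0.85 with no filter, and it passed. Gzmb changed by 0.15 (adjusted p = 0.545) with the filter at the 50th percentile. The gene that fell was the perforin gene Prf1 (-0.57 ± 0.16), whose control mean (5.18) was near background. It was chosen after its values were seen.

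**Figure D4:**
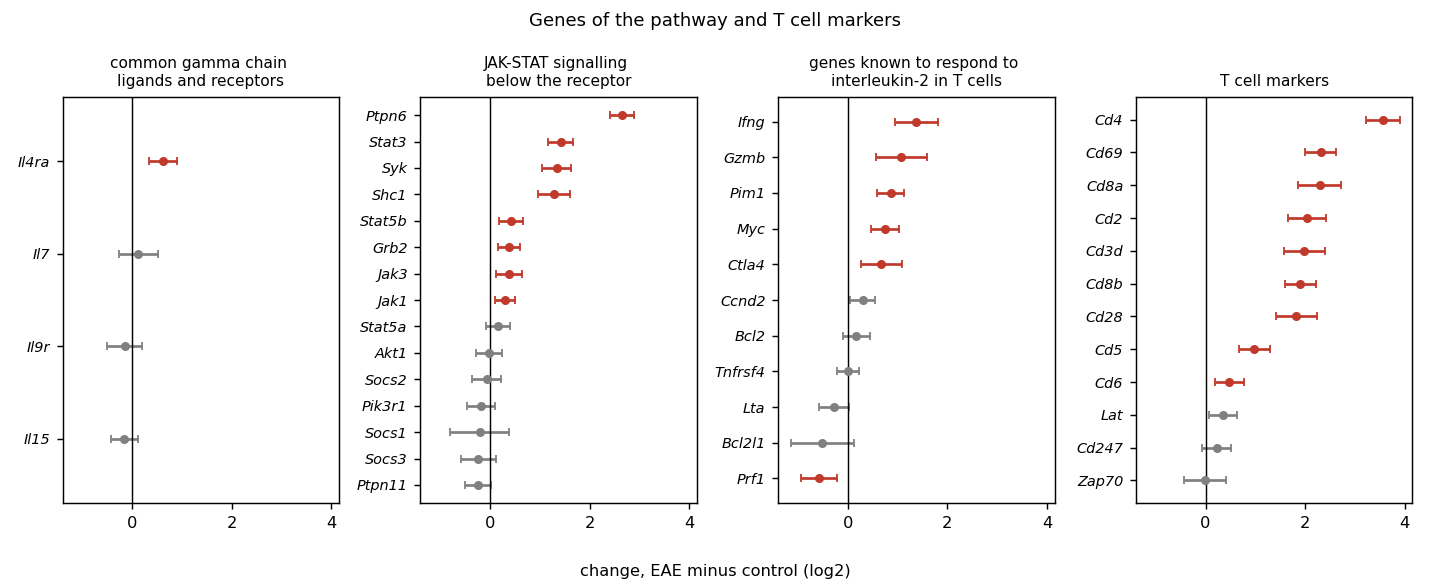
Change of the measured genes of 4 lists, EAE minus control (log2, horizontal axis), with 95% intervals from limma, red where the adjusted p was under 0.05. Of the 4 gamma chain partners 1 rose, of 15 signalling genes 8, of 11 interleukin-2 response genes 5 (with 1 fall) and of 12 T cell markers 9.

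Markers of several leukocyte types moved with Il2rg and Il2ra. Of 12 measured T cell markers 9 rose and none fell (median change 1.86), led by Cd4 (3.56 ± 0.15), the activation marker Cd69 (2.31 ± 0.14) and Cd8a (2.29 ± 0.19). The other 3, named with their values known, did not pass in limma. They were Lat (0.35, adjusted p = 0.0580), Cd247 (0.22, 0.234) and Zap70 (-0.01, 0.972). The mean of the list ran from 5.83 to 6.01 in EAE and from 4.21 to 4.66 in control rats, and 9 of its 12 genes were at background in controls. The T cell receptor subunit Cd3d (picked with its values known) rose by 1.98 ± 0.18. Of the 12, 5 rose with values raised to the limit. Cd3d then did not pass (0.59, adjusted p = 0.0765), and the change of Cd69 was 1.45 and the change of Cd8a was 1.31. In whole cords more cells of a type and more RNA per cell cannot be told apart. Nor can the rises of Cd4, Cd69 and Cd8a be assigned to T cells alone, because cell types were not separated.

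All 5 measured monocyte and macrophage markers rose (median 3.80), with Ccr2 (4.90 ± 0.26), Lyz2 (4.15 ± 0.19) and Fcgr3a (3.80 ± 0.13) in front. The mean of that list ran from 8.42 to 8.88 in EAE and from 4.79 to 5.17 in control rats, and 4 of its 5 genes were at background in controls. Under the alternative settings the smallest change was 3.45 for Ccr2, 3.93 for Lyz2 and 2.69 for Fcgr3a. Both measured dendritic cell markers rose, Cd86 by 3.36 ± 0.11 and Cd80 by 2.11 ± 0.17 (list mean 7.26 to 7.49 in EAE and 4.52 to 4.87 in control rats). Controls of Cd86 were at background. All 5 measured microglia markers rose (median 1.75), with Cx3cr1 (2.49 ± 0.19), Mertk (1.78 ± 0.18) and Aif1 (1.75 ± 0.12) in front, and a list mean of 8.18 to 8.31 in EAE and 6.41 to 6.85 in control rats. Of 7 measured NK cell markers 2 rose, Klrk1 (4.21 ± 0.16) and Cd244 (0.83 ± 0.22), and the list mean was 5.23 to 5.65 in EAE and 4.38 to 4.99 in control rats. Cd244 did not pass with the median per gene (0.38, adjusted p = 0.187), without variance moderation (0.0576) or with values raised to the limit (0.49, 0.140). The change of Klrk1 at the limit was 2.32, and the change of Cd244 was 0.51 with no filter and 1.56 at the 50th percentile. The 1 measured B cell marker, Cd79b, rose by 0.36 ± 0.10. Its call was lost without EAE rats 218 or 241 or control rats 194 or 196 (adjusted p 0.0506 to 0.0751), and Cd79b did not pass at the 50th percentile (0.0619) or with values raised to the limit (0.12, 0.791). None of 3 measured neutrophil markers passed. The largest changes there were -0.50 ± 0.20 for Il8rb (now Cxcr2), at background in both groups, and 0.34 ± 0.15 for S100a9, also at background. Il8rb passed without control rat 193 (adjusted p = 0.00195). The part of any of these cell types in the changes of Il2rg, Il2ra, Il21r and Il2 was not tested.

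Genes were then ranked by how little their values, each minus its own control mean, differed from a member's over the 8 arrays (root mean square difference, log2), among genes with at least 3 measured probe sets. Nearest to Il2rg were the MHC genes RT1-Ba (difference 0.15, change 5.03 ± 0.11), RT1-CE5 (0.27, change 4.86 ± 0.15) and RT1-Db1 (0.34, change 4.74 ± 0.17), against a median difference of 3.68 over all candidates. With no filter the change of RT1-Db1 was 2.98, and with values raised to the limit the change of RT1-CE5 was 3.15. RT1 genes have close relatives whose RNA their probe sets might also read, which was not tested. Nearest to Il2ra were the transcription factor Irf1 (0.20, change 3.05 ± 0.11), interleukin-1 alpha Il1a (0.22, change 2.84 ± 0.10) and the glycogen phosphorylase Pygl (0.23, change 3.05 ± 0.10), against a median of 2.14. With values raised to the limit the change of Irf1 was 1.71 and the change of Il1a was 1.63.

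Nearest to Il21r were the nuclear lamina gene Tmpo (0.04, change 0.78 ± 0.12), the potassium channel Kcnn4 (0.07, change 0.85 ± 0.10) and Plekho1 (0.11, change 0.89 ± 0.11). Nearest to Il2 were the prolactin receptor Prlr (0.14, change -0.79 ± 0.24), the transporter Slco4c1 (0.16, change -0.87 ± 0.16) and Apln, which encodes the peptide apelin (0.17, change -0.73 ± 0.17). All 12 genes named as nearest passed in limma, where 31.1% of all genes did. The ranking picks genes with changes near those of members that passed, so these passes are not a separate result. The call of Prlr was lost without any one of EAE rats 217, 219 or 241 or control rat 196 (adjusted p 0.0540 to 0.0813), with the median per gene (0.0534) and without variance moderation (0.0868). With values raised to the limit Kcnn4 (0.17, adjusted p = 0.707), Slco4c1 (-0.23, 0.528) and Prlr (-0.31, 0.538) did not pass. The change of Prlr was -0.46 with no filter, and at the 50th percentile the change of Kcnn4 was 0.49, of Slco4c1 -0.58 and of Apln -1.18, all past the threshold. The median difference over all candidates was 0.70 for Il21r and 0.63 for Il2. Both gene values are means over probe sets with unlike changes (-0.47 to 3.26 in Il21r, -1.42 and -0.29 in Il2). Nearness to such a mean need not hold for any single probe set.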

How the data were processed

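The deposited values were log2 probe set intensities, 1 column per rat. Per the submitters' processing notes the tools were Affymetrix Expression Console, RMA and Partek, with no role or version, and a genome build was not given in the sources used here. Where RMA is applied it draws dim values together, which shortens changes near background. Precision is limited by the number of arrays, 4 per group.

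Members and lists were chosen with earlier results of these data known. The olfactory receptor background used 1048 genes with 2014 probe sets, without the filter. Probe sets were named by the platform's annotation: 76186 had 1 symbol, 550 several and 4203 none. Of 62176 measured probe sets 58784 had 1 symbol. List genes not found by symbol were looked up by synonym in a RefSeq table (GRCr8), for names only. EAE and control rats were compared with limma 3.58.1 (lmFit, eBayes and diffSplice) in R 4.3.3, 2-sided, with Benjamini-Hochberg adjustment over all features and a threshold of 0.05, with no covariate. Errors of changes are SE. Whether each rat is from a separate cage or litter is not labelled. Named were the members, the 3 largest passing changes per list (the 2 largest changes where none passed), all measured gamma chain partners and the 3 nearest genes per member. Of the members' probe sets those of Il2 and Il21r were all counted and some of them named, with the extremes of the other genes. Il2rg probe set 5952409, Il2ra probe sets 6428891, 5885052 and 6047949, and genes outside these rules were named after their values were seen. The study's design names a 2-way analysis in Partek, for which diffSplice stands here. Steps were tried on simulated data in which probe sets varied independently, which does not test them on probe sets that vary together. Alternatives covered the filter, normalization, gene summary, variance model, array weights, a background floor, the uneven-probe-set test and each array left out. Figures were drawn with matplotlib 3.10.9.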

Additional observations from a re-analysis of the deposited data

Results flagged for a closer look

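Of 72 groups of 4 rats checked over the 4 genes and 32 probe sets, 1 held a rat whose gap to the next was wide for the group's range. On Il2rg probe set 6023774 EAE rat 241 read 7.77, against 7.83 to 7.84 in the other EAE rats (gap over range 0.866). Chance gives about 1 such group in 20, and the range here is narrow (SD 0.030, n = 4).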

How the results depend on the processing

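No paired analysis was possible because no litter is given per rat, although the controls were littermates. Under the alternative settings, including 2 chosen after seeing the data (a filter on the mean over all arrays, and a run without control 195 and EAE 218), Il2rg (change 3.44 to 5.14) and Il2ra (1.30 to 3.21) kept their rise and their call. Their unevenness and that of Il21r also kept their call, as far as they could be tested. The unevenness test on probe sets above background in both groups could not be run. With values raised to the olfactory receptor limit 2 of 4 member genes and 1363 genes passed, against 4 and 2164, and Il2 (-0.31, adjusted p = 0.662) and Il21r (0.33, 0.265) did not. Il2 also did not pass at the 50th percentile filter (-0.29) or without variance moderation (-0.85). At the floor 11 of 32 member probe sets were at the limit on every array. Of these 11, 5 were measured, and those 5 were left out of the probe set results but stayed in the gene means. The others were in neither. Il21r probe set 5843169 kept its rise and its call in all 18 alternatives (change 3.18 to 3.35). With each array left out the change of Il2 ran from -1.03 to -0.71, of Il21r from 0.72 to 0.90, of Il2ra from 2.76 to 3.01 and of Il2rg from 5.04 to 5.14, all past the threshold. Signs turned, always without a call, for Il15 (0.10) and Stat5a (-0.010) at the 50th percentile, for Stat5a with the median per gene (-0.039), at the floor (-0.067) and with the filter on the mean (-0.057), for Il7 at the floor (-0.0043) and without control 196 (-0.021, against up to 0.205 without another array), for Il21r probe set 5941813 at the floor (-0.034) and for Il2 probe set 5905794 without control 195 (0.161, against down to -0.595 without another array). Counts moved by over 1.5 times in signalling genes (8; 5 with no filter, 4 with the median per gene, at the floor or without EAE 217), response genes (6; 3 at the 50th percentile, 0 at the floor), T cell markers (9; 5 at the floor), NK markers (2; 1 with the median per gene, without moderation or at the floor), B cell markers (1; 0 in 6 alternatives) and neutrophil markers (0; 1 with array weights or without control 193). The floor shortens dim changes by construction, and the other causes were not tested.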
